A study of Mus musculus with 12 samples.

Results

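Imprinted growth regulators are genes that are read from only the maternal or only the paternal copy in most body tissues and that act on growth, differentiation or the cell cycle. The 9 genes described here were chosen by name: the ligand-like protein gene Dlk1, the growth factor gene Igf2, its receptor gene Igf2r, the non-coding RNA gene H19, the zinc finger genes Plagl1 and Peg3, the MAGE family gene Ndn, the cyclin-dependent kinase inhibitor gene Cdkn1c and the hydrolase-like gene Mest. Of these 9 genes among 15964 named ones, 8 had at least 1 probe set annotated to that gene alone, 17 probe sets in all, and H19 had 1 probe set whose annotation also names Mir675, a microRNA gene inside H19. The values come from RNA of 4 isolated mouse germ cell populations labelled as spermatogonia of type A, spermatogonia of type B, pachytene spermatocytes and round spermatids. Each was read on the Affymetrix designs U74Av2, U74Bv2 and U74Cv2, which carry partly different genes, giving 12 arrays. The labels give no strain, genotype, treatment, age or isolation method for any of the 4 populations.

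Imprinting is written in the germline. In male germ cells the parental marks are erased early and the paternal pattern is laid down before birth, so that spermatogonia, spermatocytes and spermatids carry the paternal pattern on each of their copies. In somatic tissues Dlk1, Igf2, Plagl1, Peg3, Ndn and Mest are expressed from the paternal copy, and Igf2r, H19 and Cdkn1c from the maternal copy. Igf2 signals through the IGF receptor for growth, Igf2r carries Igf2 to the lysosome and so limits it, Cdkn1c holds cells back from division, and Plagl1 encodes a transcription factor that acts on several of the other genes. The arrays measure RNA only, with no information on the parental copy it came from.

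Each population was read once on each design, without replicates, and differences among the 4 populations were therefore not tested. Ratios were taken within a design, from signals set to a floor of 50.01 to 50.03 units where they read lower. Where the lower signal was at the floor, the ratio is a bound and is given with the words at least. The error known from the arrays is technical. Control probe sets present on all 3 designs showed how far a log2 ratio varied between designs. Its SD was 0.26 from type A to type B, 0.23 from type B to pachytene and 0.44 from pachytene to round spermatids. A gap between neighbouring levels was set against 2 such SDs, which is 1.44-fold, 1.38-fold and 1.83-fold in turn. Negative controls reached at most 32.7 units on the 4 U74Av2 arrays, which hold most of the probe sets described here, and up to 103.5 on the other designs. A median log2 ratio was taken over the 13003 named genes above the floor in at least 1 cell type, and it was 0.00, -0.21 and 0.00 at the 3 steps. At the step from type B to pachytene 2105 of these genes were higher by 2-fold or more and 2854 lower by as much, a split that turned to 3040 and 1526 where arrays were set to a common median, and to 3379 and 1184 where they were set to equal levels of the spike-in controls. From type A to type B the split was 468 and 471, and it was 285 and 585 with a common median and 47 and 3965 with spike-in scaling.

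The 4 populations carried the marks of their labels to different degrees. The 14 measured round spermatid markers summed to 432 and 548 units in type A and type B spermatogonia, 5695 units in pachytene spermatocytes and 55964 units in round spermatids. Sums run over designs that were scaled separately. The 13 pachytene markers summed to 1220 and 1005 units in type A and type B spermatogonia and to 43175 and 45463 units in pachytene spermatocytes and round spermatids. Markers of undifferentiated spermatogonia, 13 genes of which 11 were above the floor, summed to 2179 units in type A and 2030 units in type B spermatogonia, with 2 genes at least 2-fold higher in type B, 2 lower and a median log2 ratio of -0.11. Utf1 and Sall4, transcription regulators of pluripotent cells, were the higher ones, and the stem cell transcription factor gene Zbtb16 and the receptor gene Gfra1 the lower ones. The type B reading of Gfra1 did not exceed the highest negative control. Markers of differentiating spermatogonia, 10 genes, summed to 8021 and 7237 units, with none at least 2-fold higher in type B, 1 lower and a median of -0.55.

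Between type B spermatogonia and pachytene spermatocytes, 7 of the 8 genes with a probe set of their own were at least 2-fold lower in pachytene spermatocytes. With the scaling and floor used here the same 7 were at least 4-fold lower. Igf2r and Cdkn1c came under 4-fold with a common median and with spike-in scaling. Among all 13003 genes 21.9% were at least 2-fold lower and 5.14% at least 4-fold lower at this step. These shares include genes too near the floor in type B spermatogonia to be counted as lower. The 8 genes had a median log2 ratio of -3.56, against -0.21 over all genes, and none was at least 2-fold higher, where 16.2% of all genes were. From type A to type B spermatogonia 2 of the 8, Dlk1 and Igf2, were at least 2-fold higher, where 3.6% of all genes were, and none was at least 2-fold lower, where 3.62% were. From pachytene spermatocytes to round spermatids 1 of the 8, Cdkn1c, was at least 2-fold higher and 1, Plagl1, at least 2-fold lower, with 9.07% and 11.8% of all genes in these directions. At 4-fold no member differed at the first or the last step, where 0.154% and 3.84% of all genes were higher and 0.162% and 1.96% lower, and none was higher at the middle step, where 7.46% were. All 8 genes were above the floor in type A and in type B spermatogonia, and 4 of them in pachytene spermatocytes and 4 in round spermatids. Over all probe sets of U74Av2 the median signal was 55.9, 62.8, 43.8 and 43.4 units in the same order. It too was above the floor in spermatogonia and under it in the later cell types.

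**Figure D1:**
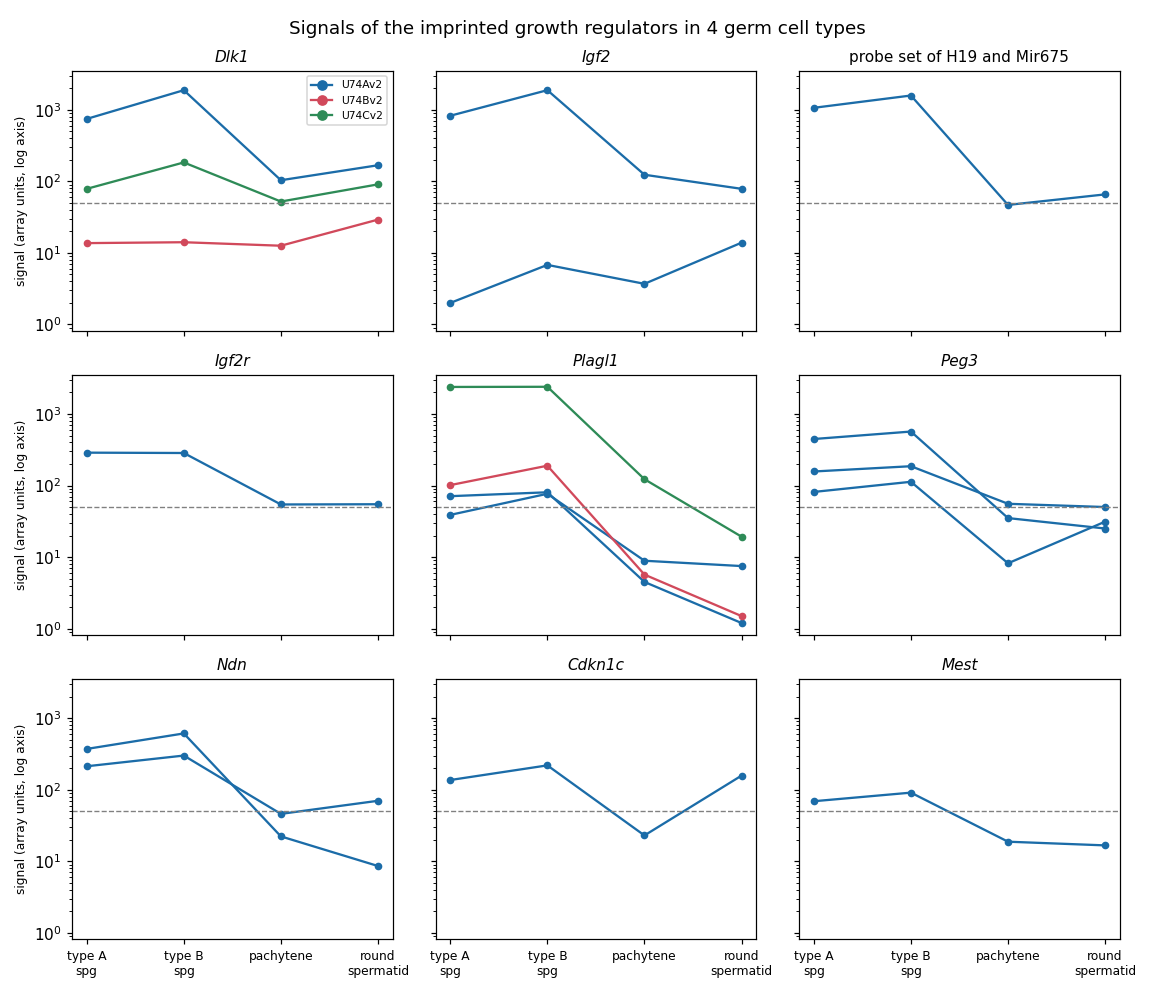
Signal of each probe set in each of the 4 cell types, from type A and type B spermatogonia (spg) to pachytene spermatocytes and round spermatids, on a log axis in array units; colours give the array design, each point is 1 array, and the dashed line is the floor. Of the 17 probe sets annotated to 1 gene, 15 have their highest signal in spermatogonia, and 12 read at least 2-fold lower in pachytene cells than in type B spermatogonia. The shares over all probe sets were not counted, and 21.9% of all genes were lower by as much.

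The ligand genes Dlk1 and Igf2 both had their highest signal in type B spermatogonia. Dlk1, a transmembrane protein of the Notch ligand family that restrains differentiation of precursor cells, read 745 and 1876 units in type A and type B spermatogonia, 104 units in pachytene spermatocytes and 168 units in round spermatids (probe set 101975_at). It was thus 2.52-fold higher in type B than in type A spermatogonia and 18.1-fold lower in pachytene cells than in type B. The gap between round spermatids and pachytene spermatocytes, 1.62-fold, was within 2 SDs of the controls. Its probe set on U74Cv2, 169192_i_at, read 78.5, 184, 52.2 and 90.7 units in the same order. It too was highest in type B, 2.34-fold over type A. Its pachytene reading lay under the highest negative control of that array, 61.2 units, so the size of the difference to pachytene spermatocytes is not known from it. The probe set on U74Bv2, 108265_at, lay between 12.6 and 29.2 units in all 4 cell types, which is under the floor and under the highest negative control of each array.

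Igf2, a secreted growth factor of fetal tissues, read 825 and 1878 units in type A and type B spermatogonia, 124 units in pachytene spermatocytes and 78.6 units in round spermatids (98623_g_at). Type B spermatogonia again stood highest, 2.28-fold over type A and 15.2-fold over pachytene spermatocytes, and the 1.57-fold gap between pachytene spermatocytes and round spermatids was within 2 SDs of the controls. The other Igf2 probe set, 98622_at, was made from the same sequence record but read 2.0, 6.8, 3.7 and 13.9 units. So the level of Igf2 rests on 1 of its 2 probe sets, and without probe sets of special name endings Igf2 is at the floor in every cell type.

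The probe set 93028_at, annotated to H19 and Mir675, could not be assigned to 1 of these names and was left out of the counts. It read 1065 and 1581 units in type A and type B spermatogonia, 46.8 units in pachytene spermatocytes and 65.7 units in round spermatids. It was 1.48-fold higher in type B than in type A and at least 31.6-fold lower in pachytene cells than in type B. H19 and Igf2 are neighbours on chromosome 7 that in somatic tissue are read from opposite parental copies. Here the signals of this probe set and of Igf2 were both highest in type B spermatogonia, and all 4 spermatogonial readings exceeded every reading in pachytene spermatocytes and round spermatids.

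Igf2r, the receptor that takes up Igf2 and mannose 6-phosphate tagged enzymes, read 288 and 285 units in type A and type B spermatogonia, 54.4 units in pachytene spermatocytes and 54.8 units in round spermatids (95117_at). The spermatogonial types did not differ beyond the spread of the controls, at 1.01-fold, nor did the 2 later types, at 1.01-fold, and between these pairs lay a 5.24-fold difference. The later readings lie just above the floor. Igf2r therefore lacked the peak in type B spermatogonia that Igf2 and Dlk1 had.

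Plagl1, the zinc finger factor also known as Zac1, had 4 probe sets, and each read lower in both later cell types than in type B spermatogonia. The brightest, 166084_f_at on U74Cv2, read 2384 and 2397 units in type A and type B spermatogonia, 123 units in pachytene spermatocytes and 19.3 units in round spermatids, 19.6-fold lower in pachytene cells than in type B. It was further at least 2.45-fold lower in round spermatids than in pachytene spermatocytes, over the 2 SDs of the controls. Its ending marks a probe set that may also match related sequences. The others lay nearer to the floor: 163814_r_at on U74Bv2 read 101, 189, 5.7 and 1.5 units, 92502_at read 71.0, 80.5, 4.5 and 1.2 units, and 92501_s_at read 38.9, 76.7, 8.9 and 7.5 units. For 92502_at, the 1 Plagl1 probe set without a special ending, the decrease to pachytene spermatocytes can be given only as at least 1.61-fold, because the type B signal lies close to the floor.

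Peg3, a large zinc finger protein, had 3 probe sets, all on U74Av2. The brightest, 96765_at, read 447 and 568 units in type A and type B spermatogonia, 35.1 units in pachytene spermatocytes and 25.1 units in round spermatids, at least 11.4-fold lower in pachytene cells than in type B. For 161316_f_at the signals were 157, 186, 55.6 and 50.1 units, and for 101451_at 81.4, 113, 8.2 and 31.3 units. All 3 probe sets put type B first and type A next, but none of these gaps exceeded 2 SDs of the controls.

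Ndn, which encodes necdin, a growth-suppressing protein best known from neurons, read 372 and 612 units in type A and type B spermatogonia, 22.3 units in pachytene spermatocytes and 8.6 units in round spermatids (101059_at). The difference from type B to pachytene spermatocytes was at least 12.2-fold. Type B was 1.65-fold over type A, more than 2 SDs of the controls. The other probe set, 94811_s_at, read 213, 300, 46.0 and 70.1 units. It gave at least 6.0-fold between type B and pachytene spermatocytes and 1.41-fold between type B and type A.

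Cdkn1c was the 1 gene of the group at least 2-fold higher in round spermatids than in pachytene spermatocytes. This inhibitor of cyclin-dependent kinases, p57, read 137 and 219 units in type A and type B spermatogonia, 23.0 units in pachytene spermatocytes and 158 units in round spermatids (95471_at). Type B spermatogonia, round spermatids and type A spermatogonia, in this order, did not differ from their neighbours beyond 2 SDs of the controls. Compared directly, type B was 1.60-fold over type A, more than 2 SDs of the controls for that pair, 1.44-fold. Pachytene spermatocytes lay under the floor, at least 4.38-fold below type B and at least 3.15-fold below round spermatids. The spermatid level of Cdkn1c rests on a single probe set. Dlk1 read 168 units in round spermatids on 101975_at, and its probe set 169192_i_at put the 4 cell types in the same order as Cdkn1c.

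Mest, a protein of the alpha/beta hydrolase fold, read 69.1 and 91.1 units in type A and type B spermatogonia, 18.8 units in pachytene spermatocytes and 16.7 units in round spermatids (92607_at). Its highest signal was only 1.82 times the floor, so that a 2-fold difference could not be shown above it, and the ratio from type B to pachytene spermatocytes is at least 1.82-fold. Without a floor the log2 ratio at this step was -2.28, which counts Mest among 8 of 8 genes at least 2-fold lower.

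**Figure D2:**
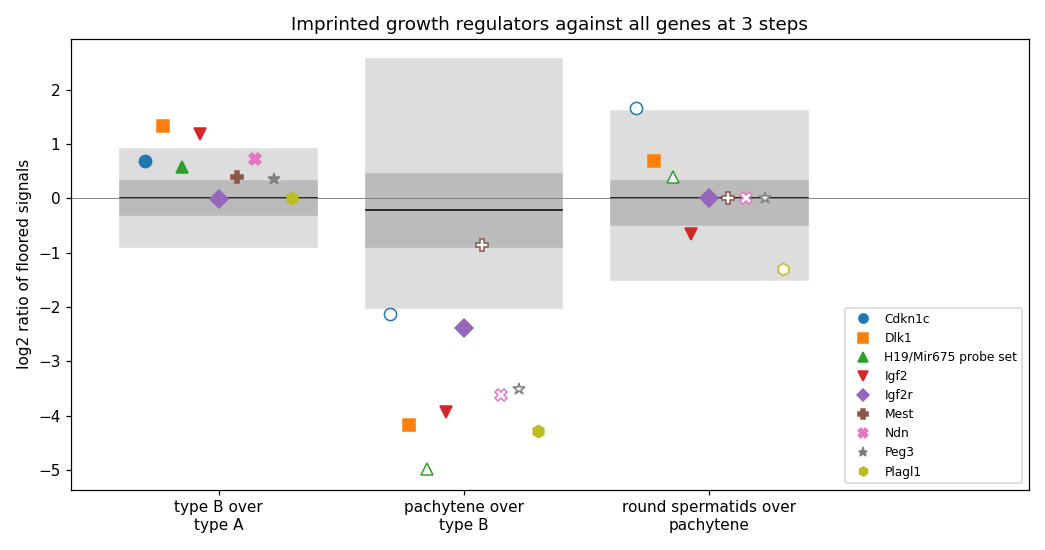
Log2 ratio of floored signals at the 3 steps, for the probe set that stands for each gene and that of H19 and Mir675. Open symbols give the least size of a difference, in either direction, or pairs at the floor. Grey bars give the central 50% and 90% of 13003 genes with their median as a line. At the step from type B spermatogonia to pachytene spermatocytes all points but Mest lie below a log2 of -2.

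The RefSeq promoter table (GRCm38.p6) held 12 start sites for 7 of the 9 genes, with Igf2 at 4 and Mest at 3, and gave windows of 300 bases, 250 before and 50 after the start. H19 and Cdkn1c have no entry there. Promoters of Plagl1, Mest and Peg3 are shown because in somatic tissue these lie in regions that are methylated on the maternal copy, at CpG dinucleotides, while the male germline leaves them unmethylated. Capitals mark CpG in the first 2 and the letters GGGGCCCC, a motif that the Plagl1 protein binds, in the third.
Plagl1, chr10:13090582-13090881, plus strand: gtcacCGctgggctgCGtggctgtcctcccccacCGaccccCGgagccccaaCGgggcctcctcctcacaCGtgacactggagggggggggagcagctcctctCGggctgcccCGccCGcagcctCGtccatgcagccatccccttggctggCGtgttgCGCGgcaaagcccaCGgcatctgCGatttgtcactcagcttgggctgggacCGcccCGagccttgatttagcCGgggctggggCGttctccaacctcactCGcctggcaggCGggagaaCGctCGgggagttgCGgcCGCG
Mest, chr6:30737800-30738099, plus strand: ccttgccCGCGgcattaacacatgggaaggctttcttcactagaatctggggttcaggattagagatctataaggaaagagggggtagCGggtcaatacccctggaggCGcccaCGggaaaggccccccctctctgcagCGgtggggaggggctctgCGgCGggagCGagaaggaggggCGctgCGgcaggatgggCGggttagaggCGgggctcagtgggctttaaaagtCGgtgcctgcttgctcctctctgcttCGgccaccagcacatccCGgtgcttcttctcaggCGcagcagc
Peg3, chr7:6730370-6730669, minus strand: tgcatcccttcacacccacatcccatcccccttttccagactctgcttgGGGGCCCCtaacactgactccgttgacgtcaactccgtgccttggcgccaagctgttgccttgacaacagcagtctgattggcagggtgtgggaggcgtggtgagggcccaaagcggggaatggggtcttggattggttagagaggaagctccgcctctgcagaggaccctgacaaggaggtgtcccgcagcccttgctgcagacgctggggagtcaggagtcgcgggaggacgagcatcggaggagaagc
The windows hold 26 CpG in Plagl1, 17 in Mest and 13 in Peg3, where the median over all 32851 promoters was 7, and 16.9%, 31.4% and 37.9% of all promoters have as many. Over the 12 windows the number ran from 2 at 1 of the Igf2 starts to 34 at Igf2r, and 10 of 12 exceeded the median. The letters GGGGCCCC, which read the same on both strands, occurred in 1 of the 12 windows, that of Peg3, from 201 bases before the start, and in 1.08% of all promoters. A GC box, GGGCGG on either strand, occurred in 8 of 12 windows and in 35.7% of all promoters. The Mest windows that start at 30737800 and 30737803 overlap almost fully and are counted separately. The remaining Mest window holds 8 CpG. Methylation and binding were not measured in these cells.

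Markers of connective tissue were, like the imprinted growth regulators, brightest in type B spermatogonia and low in both later cell types. The summed signal of the 8 genes was 5266 and 7926 units in type A and type B spermatogonia, 503 units in pachytene spermatocytes and 528 units in round spermatids. Plagl1 probe set 166084_f_at, which may match related sequences, gave 2384 and 2397 of the spermatogonial units. Dlk1 and Igf2 gave 1876 and 1878 units of the type B sum, so the sum mainly follows these 3 genes. For 16 measured fibroblast and matrix genes the summed signal was 8228, 14244, 947 and 915 units. Of these 16 genes 15 were above the floor in type A, 16 in type B, 5 in pachytene spermatocytes and 7 in round spermatids, and the collagen gene Col1a1 read 1192, 2054, 4.8 and 8.9 units. At the step from type B to pachytene spermatocytes 15 of the 16 read lower by 2-fold or more, and the median log2 ratio was -2.98, and from type A to type B 8 of 16 were at least 2-fold higher, with a median of 1.03. The shares of all genes were 21.9% and 3.6%. In RNA of a cell population, fewer cells of a type and less RNA per cell cannot be told apart. The part of connective tissue RNA in the signals of the imprinted growth regulators was not tested.

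Markers of other testis cells were also lower in pachytene cells, in part of their genes. Peritubular myoid markers, 10 genes, summed to 4573, 6304, 1313 and 2309 units in the order of the cell types. From type B to pachytene spermatocytes 7 of these 10 read lower by 2-fold or more, with a median log2 ratio of -1.69, and 2 of the 10 read higher by as much in type B than in type A. In these directions 21.9% and 3.6% of all genes differed. Macrophage and leukocyte markers, 12 genes, summed to 1260, 1908, 409 and 523 units. Of these, 9 were above the floor in type B, 2 of the 9 were at least 2-fold higher there than in type A, and 7 of the 9 were at least 2-fold lower in pachytene cells, with a median of -1.25. Adgre1, Ptprc and Cd52 of this list were under the floor in each cell type, while the complement gene C1qc read 135, 222, 21.2 and 46.9 units. Sertoli cell markers, 16 genes, summed to 9062, 7443, 4756 and 2157 units, and 5 of 15 above the floor were at least 2-fold lower from type B to pachytene spermatocytes, with a median of -0.74 and with Amh under the floor throughout. Endothelial markers, 10 genes, summed to 822, 986, 461 and 357 units, with 2 of 6 lower and Tek, Tie1, Emcn and Vwf under the floor. Leydig cell markers, 10 genes, summed to 1101, 1460, 1238 and 551 units, with 1 of 8 lower and Hsd3b6 and Hsd17b3 under the floor. The part of these cells in the signals of the imprinted growth regulators was not tested either. The log2 of the summed signal in pachytene spermatocytes over type A spermatogonia was -3.12 for fibroblast and matrix genes, -1.80 for myoid and -1.62 for macrophage and leukocyte genes, beside -3.39 for the imprinted growth regulators.

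**Figure D3:**
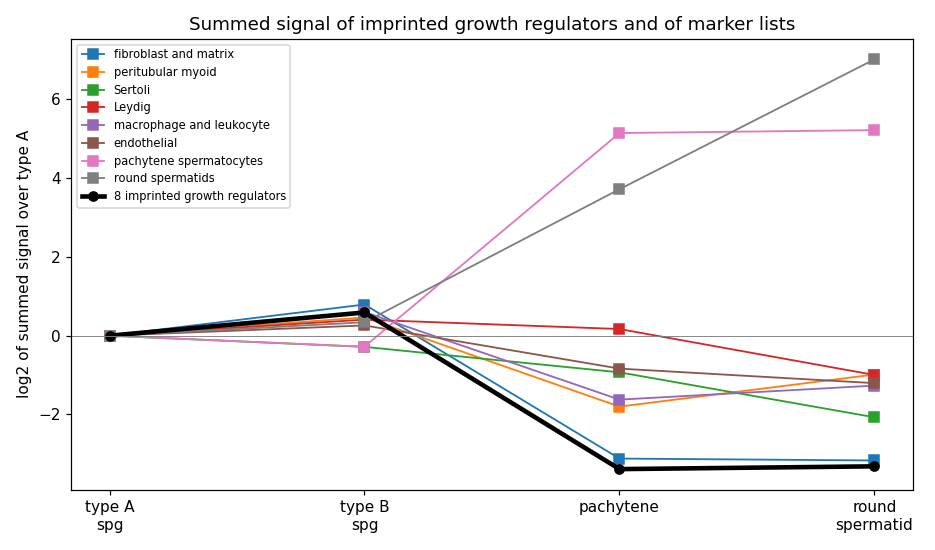
Log2 of the summed signal over that in type A spermatogonia for the 8 imprinted growth regulators (thick line) and for 8 marker lists, with each point summed over the arrays of 1 cell type (spg, spermatogonia). The imprinted growth regulators lie at 0.59, -3.39 and -3.32 in type B, pachytene and round spermatid samples, near the fibroblast and matrix markers at 0.79, -3.12 and -3.17. Plagl1, Dlk1 and Igf2 make up most of the sum of the growth regulators in spermatogonia.

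The difference between type B and type A spermatogonia depended on the scaling. The bacterial spike-in controls read 1.76-fold higher on the type B than on the type A arrays. Scaled to them, the median over all genes moved from 0.00 to -0.69, no imprinted growth regulator reached 2-fold in type B, and the median of the 8 turned from 0.54 to -0.28. Dlk1 and Igf2 then kept log2 ratios above 0, of 0.51 and 0.36, and the other 6 were below 0. Relative to the median of all genes, the 8 stood 0.54 higher with the authors' scaling and 0.41 higher with spike-in scaling. From type B to pachytene spermatocytes the 8 had a median of -3.03 under spike-in scaling, and 7 of 8 were again at least 2-fold lower.

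Other imprinted genes were mixed where the growth regulators were nearly all low. A gene under 2 times the floor in type B could not be counted as 2-fold lower, as with Mest. Such genes are among those counted here, as the paternally expressed Zdbf2 at 64.3 units in type B and the maternally expressed Atp10a at 58.0. The brightness in type B thus enters the contrast between the lists. Of 22 further paternally expressed genes with a probe set, 13 were above the floor in at least 1 cell type. At the step from type B to pachytene spermatocytes 6 of the 13 were at least 2-fold lower and 2 at least 2-fold higher, with a median of -0.65. Gnas, a locus of several transcripts that differ in parental expression and that its probe set does not separate, had a log2 ratio of -3.03, Inpp5f, a phosphoinositide phosphatase gene, at most -2.17, Sgce, the epsilon-sarcoglycan gene, -1.91 and Sfmbt2, a Polycomb group gene, 1.49. Of 29 maternally expressed genes with a probe set, 25 were above the floor. At the same step 4 of these 25 read lower by 2-fold or more and 3 higher, and the median was -0.30. Over all genes 21.9% were lower and 16.2% higher by as much. Dcn, the matrix proteoglycan decorin and itself a product of fibroblasts, had a log2 ratio of -5.64. Ascl2, a transcription factor gene of the placenta, had at most -3.06, Cd81 -1.62 and Gatm, of creatine synthesis, -1.36. Over the alternative ways of processing, the ratios of Gnas and Ascl2 at this step ran from -3.13 and -3.27 to 0.

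**Figure D4:**
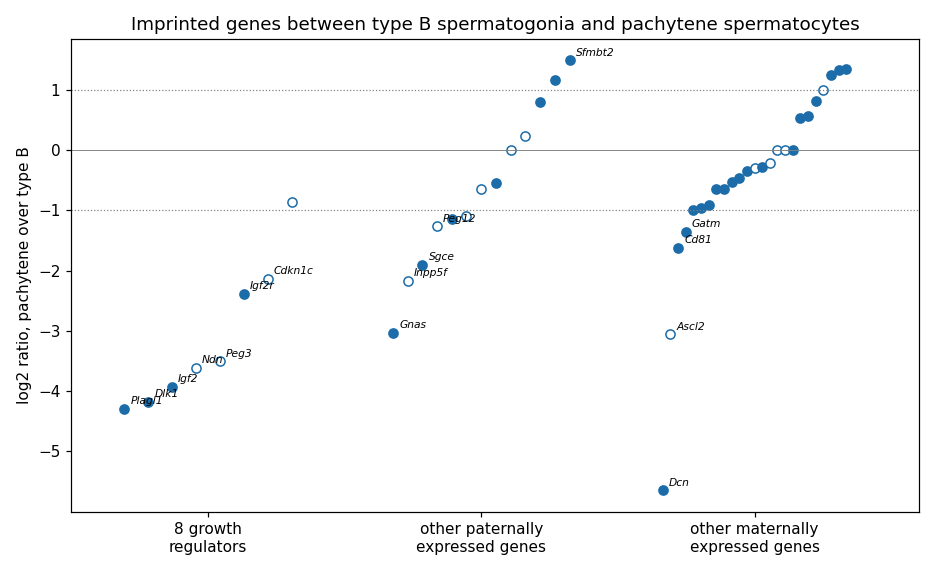
Log2 ratio of pachytene spermatocytes over type B spermatogonia for the 8 imprinted growth regulators and for other paternally and maternally expressed imprinted genes. The other genes were above the floor in at least 1 cell type. Open points give the least size of a difference, in either direction, or pairs at the floor. Dotted lines mark 2-fold. Of the growth regulators 7 of 8 lie under the lower dotted line, beside 6 of 13 and 4 of 25 in the other lists and 21.9% of all genes.

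From pachytene spermatocytes to round spermatids 2 of the 13 paternally expressed genes were at least 2-fold higher, as Cdkn1c and 9.07% of all genes were. Zdbf2 read 63.2, 64.3, 112 and 449 units in the 4 cell types, with a log2 ratio of 2.01 at this step. Peg12 read 73.4, 120, 10.9 and 103 units, and so was low in pachytene spermatocytes alone, as Cdkn1c was.

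Neighbours of the growth regulators within their imprinted clusters did not share 1 course. Near Igf2 and H19, Ins2, Th and Tnnt3 were under the floor in every cell type, the leukocyte gene Lsp1 read 174, 332, 8.7 and 9.9 units, and the mitochondrial ribosomal gene Mrpl23 read 273, 315, 96.1 and 92.4 units. Near Cdkn1c, 10 of 11 genes with a probe set were above the floor. Of these, 2 were at least 2-fold lower in pachytene cells than in type B, Ascl2 and Cd81. None differed by 2-fold between pachytene spermatocytes and round spermatids. Over all genes 21.9% were lower and 16.2% higher by 2-fold or more from type B to pachytene spermatocytes. From pachytene spermatocytes to round spermatids 11.8% were lower and 9.07% higher. These shares also stand beside the counts near Plagl1 below. Near Dlk1, the maternally expressed RNA Meg3 read 107, 179, 141 and 160 units on its brightest probe set, a flatter course than that of Dlk1. Across the alternative ways of processing, the log2 ratio of Meg3 from type B to pachytene spermatocytes ran from -1.89 to 0.42. The size of its contrast with Dlk1 therefore depends on the processing. Near Igf2r, Airn, the RNA antisense to it, read 89.2, 115, 78.6 and 107 units, and Mas1 69.4, 155, 123 and 414 units. Near Ndn, Magel2 and Mkrn3 were under the floor throughout, and Ube3a, a ubiquitin ligase gene, read 142, 87.1, 127 and 131 units. Near Mest, Copg2 read 355, 300.4, 715 and 326 units, highest in pachytene spermatocytes. Near Plagl1, 4 genes were above the floor, none differed by 2-fold between type B and pachytene spermatocytes, and 2 were at least 2-fold lower in round spermatids than in pachytene spermatocytes, as Plagl1 was. These were Phactr2, with 301, 195, 121 and 20.7 units, and the splicing gene Sf3b5, with 178, 326, 408 and 203 units.

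Genes of IGF signalling were also lower in pachytene spermatocytes. Of 24 genes of this list above the floor, 14 were at least 2-fold lower than in type B spermatogonia and 2 at least 2-fold higher, with a median log2 of -1.25. The shares over all genes were 21.9% and 16.2%. Igfbp6, an IGF binding protein with preference for Igf2, read 445, 979, 56.1 and 53.6 units, a log2 ratio of -4.13 at this step. Igf1, the second ligand, read 544, 788, 36.5 and 96.4 units on U74Bv2, a log2 ratio of at most -3.98, but its U74Av2 probe set gave 0.34. Igfbp2 had -2.85 and Igfbp4 at most -2.48. Igf1r, the receptor that passes on the signal of both ligands, had its highest reading in type A spermatogonia, with 2454, 1140, 225 and 57.1 units, the last of which did not exceed the highest negative control there. Of the higher genes Mtor, the growth kinase, had 1.84 and Pik3ca at least 1.08. Igf2bp3, which binds Igf2 RNA, read 272, 437, 156 and 344 units, and Igf2bp1 272, 169, 34.1 and 79.0 units.

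Relatives of the growth regulators gave a different picture by family. Among 5 CDK inhibitor genes above the floor, none was at least 2-fold lower in pachytene cells than in type B and 3 were higher, opposite to Cdkn1c. All genes gave 21.9% and 16.2% in these directions. Cdkn2d read 117, 112, 701 and 273 units, Cdkn2c 130, 189, 942 and 538 units, and Cdkn3, a phosphatase of CDKs, 31.6, 113, 581 and 2085 units. Of the closest relatives of Cdkn1c, Cdkn1a read 50.7, 43.4, 92.3 and 104 units, and Cdkn1b stayed under the floor. In the MAGE family of Ndn, 2 of 4 genes above the floor were at least 2-fold lower, Maged2 with a log2 ratio of -3.07 and Maged1 with -2.34. Both are X-linked. Nsmce3, an autosomal member of this family, was higher with 1.11. Plagl2, the paralogue of Plagl1, read 314, 309, 166 and 208 units, a log2 ratio of -0.89.

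In the Notch pathway, to whose ligands Dlk1 is related, 4 of 14 genes above the floor were at least 2-fold lower in pachytene spermatocytes and none was higher, with a median of -0.35. For all genes the share lower at this step was 21.9% and the share higher 16.2%. Notch4 had a log2 ratio of -2.03, Notch2 at most -1.90 and Jag2 at most -1.40. The ratio of Notch4 ran from -2.03 to 0 in the alternative ways of processing. Dll1, the other of the 4, read 139 units in type B, but its pachytene reading did not exceed the highest negative control of that array, so the size of its difference is not known. Dlk2, the paralogue of Dlk1, read 76.0, 113, 87.9 and 174 units, with its highest reading in round spermatids. Among lysosomal enzymes and sorting factors that, like Igf2r, handle mannose 6-phosphate tagged proteins, 3 of 10 above the floor read lower by 2-fold or more and none read higher. The lower ones, beside 21.9% of all genes, were the cathepsin genes Ctsb with -2.12 and Ctsd with -1.99 and the adaptor gene Gga2 with at most -1.61. The smaller mannose 6-phosphate receptor M6pr was under the floor throughout.

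Genes that write or read imprints were measured on the same arrays. Of 13 above the floor 4 were at least 2-fold lower in pachytene cells than in type B spermatogonia and 1 was higher, with a median of -0.49. Among all genes 21.9% were lower and 16.2% higher by 2-fold. Dnmt3a, a de novo DNA methyltransferase, read 397, 345, 34.9 and 54.1 units and Dnmt3b 185, 155, 27.6 and 24.3 units. Dnmt3l, their cofactor, kept 543, 625, 363 and 601 units. Ctcf, the insulator protein of the Igf2 and H19 region, read 155, 109, 6.0 and 55.4 units, under the floor in pachytene spermatocytes alone. Uhrf1, which guides maintenance methylation, read 394, 278, 613 and 436 units.

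Likeness to each gene was measured as the root mean square difference of floored log2 profiles over the 4 cell types, each centred on its mean, among 3941 genes of U74Av2 or 2716 of U74Cv2. Readings under the floor count as equal to it, so genes that are both under the floor in a cell type cannot differ there, and 4 readings per gene leave many genes alike. Igf2, above the floor in all 4 cell types, was most like Igfbp6 at 0.21, the immediate early gene Fos at 0.24 and the stress gene Gadd45b at 0.28, which were above it too. For the other genes the floor enters the value. Dlk1 was nearest to Apoe, the apolipoprotein gene, at 0.10, but Apoe read 7.9 units in pachytene spermatocytes, where the floor stood in for it. Next came the tropomyosin gene Tpm4 at 0.23, above the floor throughout, and Ifrd1 at 0.24. Igf2r read just over the floor in both later cell types, and its nearest genes included Taldo1 and Armcx2, which were under the floor in both, and Nipsnap2 at 0.05, which was above it throughout. Plagl1 was nearest to the transcription factor gene Nfia at 0.29, the basement membrane collagen gene Col4a4 at 0.44 and Kank2 at 0.47, all under the floor in round spermatids as Plagl1 was. Ndn and its nearest genes Ahnak and the cytoskeletal gene Csrp1 were under the floor in both later cell types, so their likeness rests on the spermatogonial readings and on the distance to the floor. The third was Ifrd1. The same holds for Peg3 and the laminin gene Lamb1 and Ahnak, with Eid1 the other near gene. For Cdkn1c, under the floor in pachytene spermatocytes, the nearest genes were Selenok at 0.16, with 378, 454, 124 and 421 units, the mitochondrial gene Etfb at 0.17 and the fumarase gene Fh1 at 0.19. Mest had a range under 4-fold and was not compared.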

How the data were processed

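The files hold 1 signal intensity per probe set and array on a linear scale, deposited by the authors. The tool was MAS5, per the submitters' processing notes, and its version and settings are not given in the sources used here. Arrays had a trimmed mean (2% off each end) of 125.0 to 125.1. Here each array was brought to the geometric mean of these within its design, values under 0.4 of it were set to that floor, and log2 was taken. Of 36701 probe sets that are no controls, 29131 had 1 gene symbol in the platform annotation, 724 several and 6846 none; 29044 matched a RefSeq table (GRCm38.p6) by Entrez identifier. Each gene was taken from its brightest probe set by mean over the cell types. Genes at least 2-fold or 4-fold different were counted; no test was run with 1 array per group. Scripts were tested on simulated data. By rule, named genes are the 9 themselves, up to 4 genes of each list with the largest ratios at a step, cluster neighbours above the floor, up to 4 of the brightest markers of a list, and the 3 genes nearest in profile. Markers and neighbours named as under the floor, Zbtb16, Gfra1, Utf1, Sall4, Mtor, Pik3ca, Dlk2, Igf1r, Igf2bp1, Igf2bp3, Dnmt3l, Cdkn1a, Cdkn1b and M6pr fall outside it and were chosen with their values seen. The members and lists were chosen with earlier results of these data known. Python 3.11.15, numpy 2.4.6, pandas 2.3.3 and scipy 1.17.1 were used.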

Additional observations from a re-analysis of the deposited data

How the results depend on the processing

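The lower median of the imprinted growth regulators at the step from type B to pachytene spermatocytes kept its direction in the 9 alternatives that give a median, with 5 to 8 genes at least 2-fold lower, and 5 only without probe sets of special endings, where Igf2 and Plagl1 came under 2-fold. The median log2 ratio of -3.56 at this step moved to -2.56 with the floor at 0.8, -3.97 with no floor, -3.25 with a common median, -3.80 with quantile normalization, -3.03 with spike-in scaling, -2.06 with the mean over probe sets, -2.26 without special endings and -2.95 on U74Av2 only. The 2 genes at least 2-fold higher in type B than in type A came to 0 with spike-in scaling, with the mean over probe sets and at 4-fold, and to 1 without special endings; the median became -0.28 with spike-in scaling. From pachytene spermatocytes to round spermatids the 1 higher gene came to 0 at 4-fold and with the floor at 0.8. The 1 lower gene came to 0 in these and with the mean over probe sets, without special endings and on U74Av2 only, and to 2 with no floor. Igf1 turned to 0.34 at the step to pachytene spermatocytes on U74Av2 only. At this step Igf2r and Cdkn1c came under 4-fold with a common median, with spike-in scaling and with the floor at 0.8. Igf2 and Plagl1 did so with the mean over probe sets. The causes were not tested beyond what each alternative changes. Counting the H19 and Mir675 probe set, an alternative chosen after seeing the data, gave 8 of 9 lower genes. Signals near the floor and 1 array per group limit precision.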
